A study of Mus musculus with 3 samples.

Results

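Adherens and tight junctions hold neighbouring epithelial cells together and seal the space between them. In an adherens junction the outer parts of cadherins bind each other across the gap between cells, p120 catenin (Ctnnd1) and beta-catenin (Ctnnb1) bind their inner tails, and alpha-catenin (Ctnna1) links beta-catenin to actin filaments. In a tight junction claudins and occludin (Ocln) span the membrane and ZO-1 (Tjp1) anchors them to actin. Serum response factor (SRF) is a transcription factor best known for its actin cytoskeleton and immediate early target genes, and it binds a short DNA element called the CArG box. SRF binding was examined here at 9 of these genes, chosen by symbol: the cadherins Cdh1, Cdh2 and Cdh3, the catenins Ctnna1, Ctnnb1 and Ctnnd1, and the tight junction genes Tjp1, Ocln and Cldn4. All rows of the deposited region and gene tables that named one of them were taken, which gave 18 of 31850 merged regions and 7 of 16697 listed genes.

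The data came from chromatin immunoprecipitation with an antibody to SRF and sequencing, on whole cornea of mice aged about 8 weeks, of mixed strain background and without treatment. A library titled mutant came from Dstn-corn1 mice, which lack functional destrin, a protein that takes actin filaments apart, and another came from wildtype mice. The growth protocol names the mutant for every library, which goes against the wildtype title, and no source used here gives the number of animals behind a library. An input made without antibody entered no comparison. Each genotype was sequenced as 1 library, so differences could not be set against a spread between replicates and no test was run. Binding does not measure expression, so the tissue was not checked against marker genes.

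The mutated gene Dstn had 3 regions, listed at wildtype heights of 11 to 35 and at 0 in mutant for all 3, which does not conflict with the titles. A mutant height of 0 was listed for 38 of all 31850 regions. Height means the deposited peak value, which is the top of the signal within a region. Over all 31850 regions the median height was 13 in mutant and 28 in wildtype. The depth behind a height is unknown, as only signal values were used. A log2 ratio is that of mutant over wildtype height after adding 1 to each, and its median over all regions was -1.10. No source used here says how the libraries were scaled to each other. Multiplying mutant heights by 2.1, which gives regions called in both libraries the same median, moved the median of all ratios by 1.01, to -0.088. Directions are therefore given as deposited, and each scaled ratio stands beside the deposited one.

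An interval, a peak called in 1 library, was assigned by the authors to 6 of the 9 junction genes in mutant and to 7 in wildtype. These shares, 66.7% and 77.8%, stand beside 49.6% of 21896 protein-coding genes in mutant and 65.5% in wildtype. The 7 genes in wildtype were Cdh1, Cdh3, Ctnna1, Ctnnb1, Ctnnd1, Tjp1 and Ocln, and Ctnna1 was the gene without a mutant interval. Of the 18 regions, 11 were called in mutant (61.1%, against 51% of all regions) and 17 in wildtype (94.4%, against 97.9%). Of these, 10 were called in both libraries, against 48.9% of all regions. The remaining 7 were called in wildtype only (49% of all regions) and 1 was called in mutant only (2.1%). Heights ranged from 6 to 51 in mutant, with a median of 16, and from 10 to 127 in wildtype, with a median of 27.

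The sequences before the start sites of Tjp1 and Ctnnb1 are shown because a region lay over each start and a RefSeq promoter window was at hand. The letters are the 250 bases before the start in RefSeq's GRCm38.p6, the build also called mm10, at chr7:65371245-65371494 (minus strand) and chr9:120933150-120933399 (plus strand). Capitals mark the 10 letters closest to a CArG box, the first of any tie. That rule was chosen after no box was found.
Tjp1: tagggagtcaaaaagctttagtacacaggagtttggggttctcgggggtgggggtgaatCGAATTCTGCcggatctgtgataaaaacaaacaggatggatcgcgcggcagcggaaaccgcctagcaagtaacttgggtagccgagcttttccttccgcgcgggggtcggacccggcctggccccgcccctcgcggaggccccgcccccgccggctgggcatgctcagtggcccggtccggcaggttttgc
Ctnnb1: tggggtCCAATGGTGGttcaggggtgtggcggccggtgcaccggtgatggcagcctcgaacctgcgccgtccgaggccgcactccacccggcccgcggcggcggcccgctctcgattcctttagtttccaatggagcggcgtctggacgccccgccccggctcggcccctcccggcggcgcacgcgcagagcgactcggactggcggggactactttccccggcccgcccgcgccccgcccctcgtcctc

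The closest letters differed from a CArG box at 3 positions before Tjp1 and at 2 before Ctnnb1. Of all 32851 promoter windows, 75.2% held a match with at most 2 letters changed in the 250 bases before the start, and 98.0% one with at most 3. Windows from 250 bases before to 50 after the start were present for 5 of the 9 genes, Ctnnd1, Cldn4, Tjp1, Ctnnb1 and Ocln, and absent for Cdh1, Cdh2, Cdh3 and Ctnna1. None of the 8 windows of these 5 genes held a CArG box (CC, 6 letters that are A or T, then GG, a pattern that reads alike on both strands), which 1.63% of all windows held. A box with 1 letter changed, found in 19.9% of all windows, stood in a Cldn4 window and in 1 Ocln window. Neither gene had a region near its own start.
Cldn4, starting 124 bases before the start on chromosome 5: CCTTTGTTGG
Ocln, starting 176 bases before its upstream start on chromosome 13: CCCAAAATGG
The ETS core CCGGAAG, searched on both strands and found in 8.86% of all windows, was in none of the 8. A match or its absence describes these letters and windows only.

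**Figure D1:**
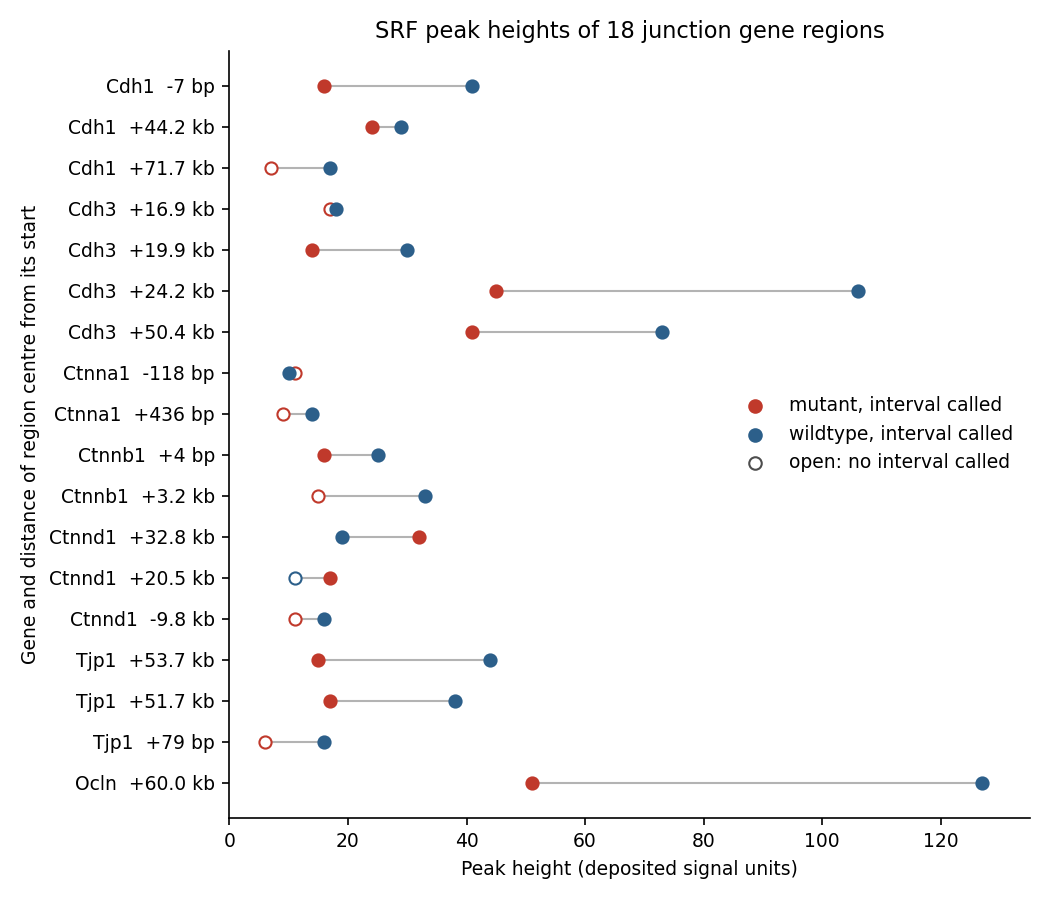
Peak heights (deposited signal units, horizontal axis) of the 18 regions of junction genes in the mutant (red) and wildtype (blue) library, with the gene and the distance from its start on the vertical axis. Filled points have a called interval in that library and open points do not. At Ctnnd1 the mutant point lies to the right of the wildtype point in 2 of 3 regions, at 32 against 19 and 17 against 11.

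Among the cadherins, Cdh3, which encodes P-cadherin of basal epithelial cells, had 4 regions on chromosome 8 (mm10), more than any other of the 9 genes. Of all 16697 listed genes, 13.3% had 4 or more regions. Its highest region (106534299 to 106535909), 24213 bp past the gene start and inside the gene, reached 106 in wildtype and 45 in mutant. Its log2 ratio was -1.22 as deposited and -0.16 scaled, and it was 1 of the 2.41% of all regions with a wildtype height of at least 100. Both libraries had their summit at the same listed position, 106534688. The mutant interval was shorter, at 824 bp against 1570 bp.

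Another high Cdh3 region (106560830 to 106561725) began 3922 bp past the end of the gene. It reached 41 in mutant and 73 in wildtype, with a log2 ratio of -0.82 as deposited and 0.24 scaled, so its direction depended on the scaling. Inside the gene, the region at 106530512 to 106531125 had 14 in mutant and 30 in wildtype, with a log2 ratio of -1.05 (-0.028 scaled). The fourth region (106527632 to 106527951), 16900 bp past the start, had nearly level heights of 17 in mutant and 18 in wildtype, with a log2 ratio of -0.078 (0.95 scaled). Its average values were also close, at 10.4 in mutant and 10.3 in wildtype, yet an interval was called in wildtype only. A height of 17 was above the lowest mutant interval of all, which was 9, so height alone did not decide a call. No Cdh3 region lay nearer to the start than 16900 bp.

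Cdh1, which encodes E-cadherin, the main epithelial cadherin, lies 46.5 kb after Cdh3 on the same strand. The region over its start (106602999 to 106603724, centre 7 bp upstream, listed at -7) held a CpG island and had 16 in mutant and 41 in wildtype. Its log2 ratio was -1.30 (-0.28 scaled), and both summits were listed at 106603264. The authors also assigned this region to 1110028F18Rik, 16218 bp past the start of that gene. Within Cdh1, a region 44228 bp from the start (106647230 to 106647962) had 24 in mutant and 29 in wildtype. Its log2 ratio of -0.26 (0.78 scaled) was above those of 91.6% of all regions, and its direction turned with the scaling. Another region, 4615 bp past the gene's end and shared with Tango6 (106674861 to 106675367), had 7 and 17, a log2 ratio of -1.17 (-0.20 scaled), and was called in wildtype only.

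The Cdh3 and Cdh1 regions together numbered 7 over 147.7 kb. The highest 2 of them were both assigned to Cdh3, and in each library their heights were above every Cdh1 region. Cdh2, which encodes N-cadherin, had no assigned region, although its RefSeq span on chromosome 18 is 220370 bp long. The nearest region to one side lay 12.7 kb away and was assigned to Gm15328 (8 in mutant and 26 in wildtype), and the nearest to the other side lay 371.5 kb away (11 and 19). Of the regions the authors assigned as upstream of a gene, 99% had their centre within 10.2 kb of its start, so such distances lie past the usual reach of an assignment.

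Ctnnd1, on the minus strand of chromosome 2, was the junction gene whose mean height was higher in mutant. In the authors' gene table its mean over 3 regions was 20 in mutant and 15.3 in wildtype. This order was found in 2.39% of all 16697 listed genes, and the Ctnnd1 mean includes a region called in mutant only. The region 32750 bp past its start (84617689 to 84618292) had 32 in mutant and 19 in wildtype, with a log2 ratio of 0.72 (1.77 scaled), above 99.3% of all regions. Intervals were called in both libraries with the same summit, 84617952, and the mutant interval was 603 bp long against 345 bp in wildtype. Average values had the same order, at 10.1 in mutant and 7.13 in wildtype.

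The second Ctnnd1 region inside the gene (84629900 to 84630526), 20527 bp past the start, had 17 in mutant and 11 in wildtype. It was called in mutant only. Its log2 ratio was 0.58 (1.61 scaled), above 99.1% of all regions, and its average values were 8.11 and 4.26. Among regions of like mean height (20 classes) the ratio was above 98.7%. The region was listed through its mutant interval alone, while 97.9% of all regions were called in wildtype. A high ratio was thus favoured in advance, and these ranks do not count as support for a change. The wildtype height of 11 was close to 9, the lowest wildtype interval of all. All regions called in mutant only had median heights of 14 in mutant and 10 in wildtype. The third region (84660305 to 84660756) had 11 in mutant and 16 in wildtype, with a log2 ratio of -0.50 (0.50 scaled), and was called in wildtype only. It was listed 9790 bp upstream of the start the authors used, and shared with Gm13718 and 2700094K13Rik. RefSeq also lists a Ctnnd1 start at 84658977, and this region began 1328 bp upstream of it. Neither Ctnnd1 promoter window overlapped a region.

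Ctnnb1, on chromosome 9, had 2 regions, both shared with 4930593C16Rik. The one over its start (120933112 to 120933696, centre 4 bp past the start) held a CpG island and covered the printed sequence. Its heights were 16 in mutant and 25 in wildtype, with a log2 ratio of -0.61 (0.41 scaled, the other direction). Its summits were listed at 120933376 in mutant and 120933408 in wildtype, 32 bp apart. The second region (120936394 to 120936714), 3154 bp past the start, had 15 and 33, a log2 ratio of -1.09 (-0.065 scaled), and was called in wildtype only. Heights at Ctnnb1 were thus below the median of all regions at its start in wildtype (25 against 28) and above it at the second region.

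Ctnna1, on chromosome 18, had the lowest mean wildtype height of the 7 genes, 12, beside 10 in mutant. Its regions lay next to each other across the start, 7 bp apart, each with a CpG island. The upstream one (35118441 to 35119147, centre listed at -118) had 11 in mutant and 10 in wildtype. Its log2 ratio was 0.13 (1.13 scaled), but its average values had the other order, 6.77 in mutant and 7.41 in wildtype. The one inside the gene (35119154 to 35119543, centre at 436 bp) had 9 and 14, a log2 ratio of -0.58 (0.41 scaled). Neither was called in mutant. At heights this close to the lowest interval called in either library, which was 9, a difference of 1 unit with unknown depth cannot be read as a change.

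**Figure D2:**
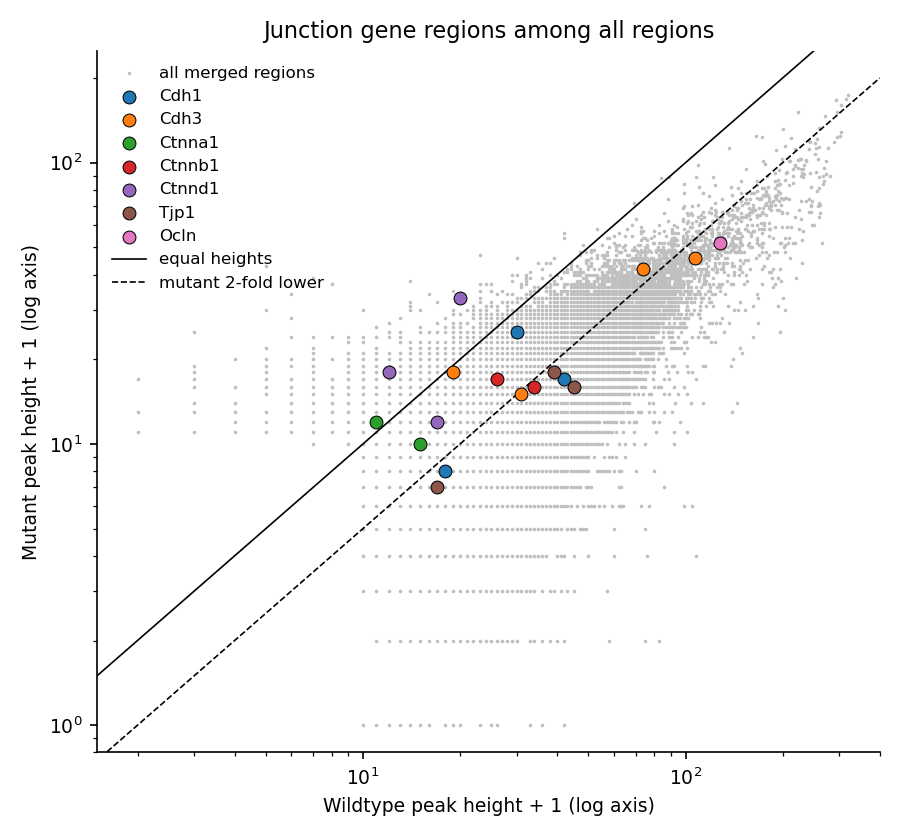
Mutant height plus 1 (vertical) against wildtype height plus 1 (horizontal), both on log axes, for all 31850 merged regions (grey) and the 18 regions of junction genes (coloured by gene). The solid line marks equal heights and the dashed line a mutant value 2-fold lower, and 3 regions, 2 of Ctnnd1 and 1 of Ctnna1, lie above the solid line.

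Of the tight junction genes, Tjp1 had 3 regions on chromosome 7 and the lowest single ratio. The region 53675 bp past its start (65317253 to 65317886) had 15 in mutant and 44 in wildtype, with a log2 ratio of -1.49 (-0.47 scaled), the lowest of the 18. The next (65319167 to 65319887), 51717 bp past the start, had 17 and 38, a log2 ratio of -1.12 (-0.088 scaled). Both were called in each library and lay inside the gene, and their summits were 0 and 64 bp apart between libraries. The region over the start (65370864 to 65371466, centre at 79 bp, with a CpG island) had 6 in mutant and 16 in wildtype, with a log2 ratio of -1.28 (-0.32 scaled), and was called in wildtype only. It reached into the printed sequence, and its summit, 65371200, lay inside the gene. The Tjp1 start used by the authors and for the printed sequence, 65371244, lies inside RefSeq's span of the gene, which runs to 65527850. All 3 Tjp1 regions had lower mutant heights under either scaling.

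The highest region of all 18 was assigned to Ocln, on chromosome 13, at 51 in mutant and 127 in wildtype (100491916 to 100493082). Its log2 ratio was -1.30 (-0.24 scaled), and both summits were listed at 100492640. Its nearer edge lay 4285 bp past the end of Ocln and its centre 59999 bp from the start, and the centre was 110 bp inside Gtf2h2, a general transcription factor subunit gene, at whose start it lay. It held a CpG island. No region lay inside Ocln or at its start, so that this gene entered the counts through a region at the start of a neighbour.

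Cldn4, which encodes a claudin of barrier epithelia, had no assigned region. Its RefSeq span on chromosome 5 is 1812 bp long. The nearest regions lay 11.8 kb to one side, assigned to Wbscr27 (16 in mutant and 22 in wildtype), and 18.4 kb to the other, assigned to no gene (26 and 60). Both were called in each library.

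Position and height were set side by side for the 18 regions. A region within 1 kb of the member's start was found 5 times, at Cdh1, Ctnna1, Ctnnb1 and Tjp1. The Ocln region lay at the start of Gtf2h2, so 6 of the 18 (33.3%) were within 1 kb of the start of any gene, against 22.7% of all regions. The 5 at members' own starts had heights of 6 to 16 in mutant and 10 to 41 in wildtype, with medians of 11 and 16. With the Ocln region included, the 6 had medians of 13.5 in mutant and 20.5 in wildtype, beside 14 and 23 for all regions within 1 kb of any gene start. Of these 6, the regions at Cdh1, Ctnnb1 and Ocln, 3 in all, were called in mutant, beside 60.6% of all such regions. The 12 regions farther from any start had medians of 17 in mutant and 29.5 in wildtype, beside 13 and 30 for all regions farther away. CpG islands stood in 6 of the 18 (33.3%, against 23% of all regions), namely the 5 at members' starts and the region at the Gtf2h2 start assigned to Ocln. In all, 12 regions lay inside the member gene, 3 upstream and 3 downstream, and 6 were shared with another gene.

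**Figure D3:**
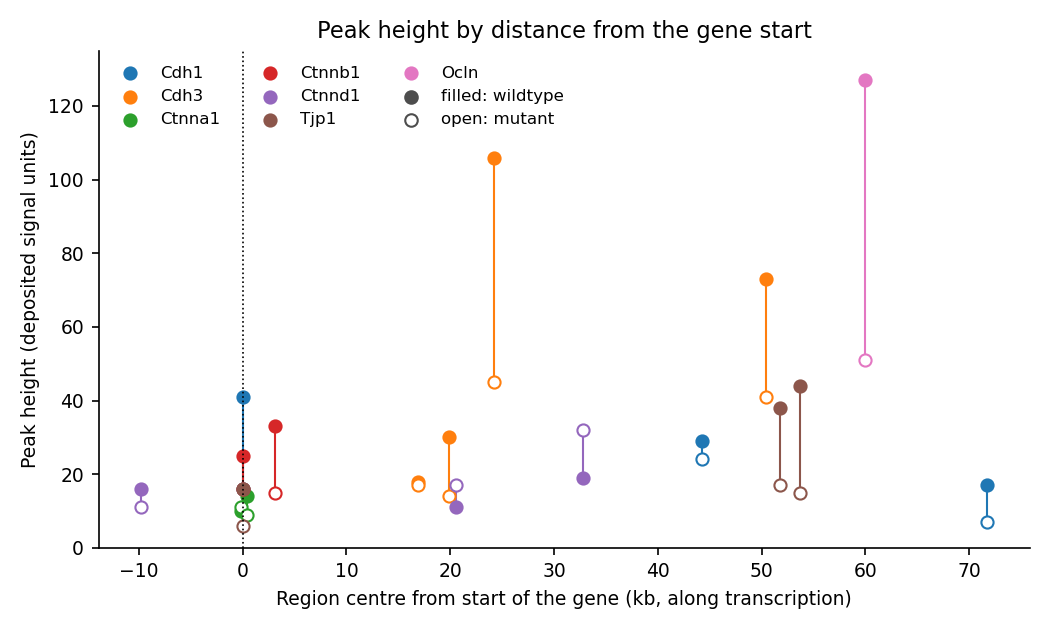
Peak height (deposited signal units, vertical) against the distance of the region centre from the start of the junction gene (kb along the direction of transcription, horizontal), with wildtype filled and mutant open, joined for each region. The points at the start reach 41 at most, and the highest lie 24213 bp (Cdh3, 106), 50386 bp (Cdh3, 73) and 59999 bp (Ocln, 127) past it.

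Over the 18 regions the median log2 ratio was -0.93, beside -1.10 for all regions, and 11 of them were above the median of all. With 1 region per gene (7 regions) the median was -1.22, and over the 10 regions called in both libraries it was -1.08. Whether it lay above or below -1.10 thus depended on the regions taken. With scaled heights the median of the 18 turned to 0.10, beside -0.088 for all regions. At least 2-fold lower in mutant were 9 as deposited (50%, against 59% of all regions). With scaled heights the count was 0. The share of all regions for that count was not worked out, and the scaling moved the median of all ratios by 1.01. The 0 is therefore not a trait of these genes. As deposited, 0 were at least 2-fold higher, against 0.415%. A mutant height above wildtype was found in 3 of 18 (16.7%), against 3.69% of all regions. Those 3 were in Ctnnd1 and Ctnna1, and regions of 1 gene are not independent. They include the Ctnnd1 region called in mutant only, which was listed through its mutant interval. With the scaled heights 9 of 18 were higher in mutant (50%), against 43.5% of all regions. With the average value 3 were higher, against 4.64% of all, namely both Ctnnd1 regions inside the gene and the Cdh3 region at 106527632. Where both libraries had an interval, summits in the 10 regions were 0 to 64 bp apart with a median of 0, and the median over 15365 such regions was 32 bp. In the 10 regions only offsets of 0, 32, 48 and 64 bp occurred, and a median of 0 beside 32 was not read as a difference.

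The wider adherens junction list, 21 other cadherin, catenin, nectin and linker genes, had an interval in 18 members in mutant (85.7%, against 49.6% of protein-coding genes) and 20 in wildtype (95.2%, against 65.5%). Its 94 regions had a median log2 ratio of -1.26 (-0.28 scaled). Of these, 59 were at least 2-fold lower in mutant (62.8%, against 59% of all regions) and 2 had a higher mutant height (2.13%, against 3.69%). Among its highest regions were those at Pvrl2 (nectin-2, 33 in mutant and 90 in wildtype, 384 bp before the start) and Vcl (vinculin, 50 and 60, at the start). The log2 ratio was -1.42 (-0.37 scaled) at Pvrl2 and -0.26 (0.80 scaled) at Vcl. The wider tight junction list, 27 genes, had an interval in 16 members in mutant (59.3%) and 21 in wildtype (77.8%), and 6 members were not listed at all. Its 69 regions had a median log2 ratio of -1.12 (-0.091 scaled). Of these, 42 were at least 2-fold lower (60.9%) and 6 had a higher mutant height (8.70%). At least 2-fold higher in mutant were 2 of the 69, beside 0.415% of all regions. Their heights were low, at 15 in mutant against 7 in wildtype and 14 against 6, where the lowest interval called in either library was 9. The highest regions of this list were at Tjp3 (ZO-3, 46 and 103, shared with Pip5k1c), Marveld3 (35 and 90, 99 bp before the start) and Cldn1 (28 and 88, 55 bp before the start). Unlike Cldn4, the claudin gene Cldn1 thus had a region at its start.

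Desmosomes, the junctions tied to keratin filaments, served as the most alike group. Of 15 desmosome genes, 5 had an interval in mutant (33.3%) and 8 in wildtype (53.3%), where the 9 adherens and tight junction genes had 66.7% and 77.8% and all protein-coding genes 49.6% and 65.5%. The 18 desmosome regions had a median log2 ratio of -0.88 (0.14 scaled), close to -0.93 (0.10 scaled) for the 18 junction regions, and 7 were at least 2-fold lower (38.9%, against 50% of the junction regions and 59% of all). A mutant height above wildtype was found in 0 of them, beside 3 of 18 junction regions and 3.69% of all regions. The highest were at Jup (plakoglobin, which is also in the wider adherens list; 39 in mutant and 68 in wildtype), Pkp1 (31 and 57) and Evpl (32 and 49). With 1 library per genotype the difference between the lists was not tested.

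**Figure D4:**
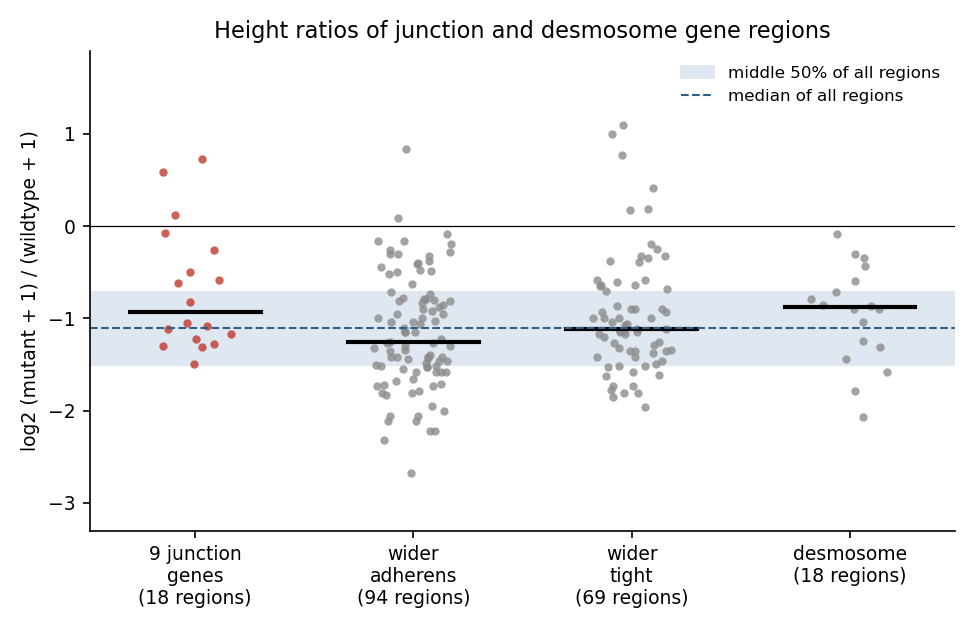
Log2 ratios of mutant to wildtype height, 1 added to each (vertical), for regions of the 9 junction genes (red) and of the wider adherens, wider tight and desmosome lists (grey), with list medians as black bars. The dashed line is the median of all regions, -1.10, and the shaded band holds the middle 50% of all regions, from -1.50 to -0.72; the medians of all 4 lists lie inside it.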

How the data were processed

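SRF ChIP-seq libraries of mutant and wildtype cornea, 1 each, and an input were grouped by their titles. The submitters' processing notes name BWA and the build mm10. No source used here names the interval caller, its threshold or a scaling. The authors deposited signal values: peak and average per interval and per merged region, with gene assignments and distances from a region's centre. Coordinates are printed as deposited, and it is not stated whether they start from 0 or 1.

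Members and lists were chosen with earlier results of these data known. All regions of the 9 genes are named. From other lists the 3 genes with the highest region are named, except 1 of the wider adherens list that is not reported here. The deposited gene means were recomputed from the regions and matched for 7 of 7 genes (within 0.01). Ratios add 1 to each height. The ratio and motif code was tested on simulated data. Promoters and gene spans are RefSeq's, GRCm38.p6, matched by symbol. Python 3.11.15, numpy 2.4.6, pandas 2.3.3 and matplotlib 3.10.9 were used.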

Additional observations from a re-analysis of the deposited data

How the results depend on the processing

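No paired analysis was possible because there was 1 library of each genotype, and no replicate could be left out for the same reason. Of 25 alternative values of the summary results, 16 kept their direction and stayed near the reported value (counts within 1.5 times, medians within the 95% order-statistic interval over regions). With the libraries scaled to a common median over regions called in both, the median log2 ratio of the 18 regions turned from -0.93 to 0.10 and 0 regions were at least 2-fold lower in mutant. That scaling also turned the regions at Cdh1 +44228 bp (0.78), Cdh3 +16900 bp (0.95), Cdh3 +50386 bp (0.24), Ctnna1 +436 bp (0.41), Ctnnb1 +4 bp (0.41) and Ctnnd1 -9790 bp (0.50). The average value turned Cdh3 +16900 bp to 0.013 and Ctnna1 -118 bp to -0.11. Regions at least 2-fold lower numbered 9 of 18 as reported, 5 of 18 with the average value and 4 of 18 with a pseudocount of 5. Over fewer regions they numbered 3 of 7 within 10 kb of the member's start and 5 of 7 with 1 region per gene. They numbered 7 of 10 where the higher height was at least 28, and 6 of 10 where both libraries had a call. With the average value the median ratio of all regions moved as well, from -1.10 to -0.83. Within 10 kb of the start, 2 genes had an interval in mutant and 5 in wildtype. Among regions with a higher height of at least 28, the median of all, 1 was called in wildtype only and 0 in mutant only. For these alternative counts the shares of all regions or genes were not worked out. Beyond the scaling's own construction and the smaller number of regions, the cause was not tested. What depth limits at low heights could not be worked out, as no read totals were used.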
